A study of Mus musculus with 24 samples.

Results

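The aminoacyl-tRNA synthetase genes were followed in cultured mouse muscle that had been exercised with light. They were taken by their symbols, 1 gene for each enzyme chain that joins an amino acid to its tRNA, and the rule found 37 of the 56941 genes listed. Of these, 20 encode cytosolic enzymes and 17 encode enzymes that work only in mitochondria. All 37 were expressed highly enough to be tested, among 13315 tested genes. Tarsl2, a further gene of the threonine family, is spelled outside the rule and was not counted.

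The tissues were made of C2C12 cells, a line of mouse myoblasts, that carry ChR2::tdTomato, a blue light-gated cation channel fused to a red fluorescent protein. Every group carried the channel and was grown on fibrin gels, then differentiated for about 2 weeks in medium with horse serum and IGF-1. Tissues received blue light daily for 60 min at 1 Hz, 4 Hz or 10 Hz, while controls received none, and each group had 6 libraries from separate tissues of this 1 line. Unstimulated tissues of this kind also twitch on their own, so controls were not at rest, and light without the channel was not analysed here.

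A synthetase reads both an amino acid and its tRNA and couples them, so the set of enzymes fixes the genetic code during translation. Cytosolic enzymes charge tRNAs for the ribosomes of the cytoplasm, and 8 of them are held with scaffold proteins in the multi-synthetase complex. A separate, nuclear-encoded set is imported into mitochondria, where it charges the tRNAs of the mitochondrial genome for synthesis of respiratory chain subunits. Gars and Kars, for glycine and lysine, each supply both compartments from 1 gene, and mitochondria have no glutamine enzyme of their own. Many cytosolic synthetase genes are known targets of ATF4, the transcription factor of the amino acid response.

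Depth ran from 8052369 to 18159144 estimated counts per library. Levels are given below as CPM, the counts scaled to library size with TMM factors, which compare libraries, or as TPM, which is divided by transcript length and compares genes. Genes are called higher or lower at an adjusted p under 0.05 in edgeR's quasi-likelihood test across all genes. All 10 myotube markers were tested, and their summed TPM was 11700 to 15100 in controls, 8430 to 12200 at 1 Hz, 8600 to 12700 at 4 Hz and 11300 to 12300 at 10 Hz. Of these 10, Myog, a regulator of muscle differentiation, was lower at 1 Hz (-1.34) and 4 Hz (-1.47), Myh8, a developmental myosin, was higher at 4 Hz (0.37), and the rest passed no threshold, with list medians of 0.04 and 0.12. Summed over 10 proliferation markers, TPM was 263 to 313, 218 to 306, 189 to 274 and 274 to 310 in the same order of groups. Of these, 2 were higher and 0 lower at 1 Hz (19.2% and 18.1% of all genes). At 4 Hz 2 were higher and 3 lower (27.5% and 23.9%), with log2 fold changes of the 10 from -1.40 to 0.51. Of 8 immune markers only Cd68 passed the filter, with sums of 74.3 to 103, 55.2 to 86.2, 56.0 to 93.4 and 59.8 to 79.0 TPM, and of 6 endothelial markers none did, with sums up to 1.08 TPM. Of 10 fat cell markers 3 were tested, and Pparg and Lpl were higher at 1 and 4 Hz. This was 66.7% of those tested, beside 19.2% and 27.5% of all genes. The remaining tested marker was called at neither frequency, with 0.28 at 1 Hz and -0.1 at 4 Hz. Summed fat cell markers were 113 to 157 TPM in controls, 115 to 173 at 1 Hz, 97.6 to 143 at 4 Hz and 90.1 to 126 at 10 Hz. The part of any such cells in the results was not tested, and in bulk RNA fewer cells of a type cannot be told apart from less RNA per cell. More 18S ribosomal RNA (Rn18s-rs5) than in every control was found in 3 libraries at 1 Hz and 2 at 4 Hz, and the main results that change without them are given with both values. Genes of the mitochondrial genome took 1.37% to 2.72% of counts in controls and 0.545% to 8.90% at 4 Hz.

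In control tissues the cytosolic genes were far more abundant than the mitochondrial ones. Nars, for asparagine, had the highest level, with 363, 385 and 444 TPM as lowest, median and highest of 6 libraries. Sars (serine) and Gars (glycine) followed at medians of 360 and 319 TPM, and the ranges of neighbours among these 3 overlapped. A gap separated them from Rars (arginine), Tars (threonine) and Kars (lysine), at 155, 155 and 150 TPM. The lowest cytosolic gene was Vars (valine), at 38.3, 42.4 and 47.1 TPM.

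Among mitochondrial genes Lars2 (leucine) came first, at 28.3, 48.7 and 124 TPM, and it was the only one that reached into the cytosolic range. It is described on its own below, because its value moved with ribosomal RNA. Rars2 (arginine) and Yars2 (tyrosine) came next at medians of 20.6 and 20.4 TPM, with overlapping ranges. Sars2 (serine) was lowest, at 1.74, 2.40 and 3.19 TPM. Per amino acid, the control TPM of the cytosolic gene was a median of 155 times that of its mitochondrial counterpart for serine, 52.6 times for asparagine and 5.16 times for isoleucine, the last being the smallest ratio apart from leucine.

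Stimulation at 1 and 4 Hz came with lower RNA of many synthetase genes, small in the cytosolic set and larger in a few mitochondrial genes, while at 10 Hz none was called. At 1 Hz 12 of 37 members were lower (32.4%) and 2 were higher (5.41%), against 18.1% and 19.2% of all tested genes. At 4 Hz 16 members were lower (43.2%) and 5 were higher (13.5%), against 23.9% and 27.5% of all. Without the 5 libraries high in 18S RNA, 7 were lower and 1 higher at 1 Hz (10.8% and 8.93% of genes), and 15 and 3 at 4 Hz (22.2% and 19.3%). Both directions thus occurred in the family, with fewer higher and more lower members than among all tested genes, which was not tested as a list. At 10 Hz edgeR called 0 members in either direction, where it called 0.015% of genes higher and 0.0225% lower. DESeq2 and limma also called 0 there, and 1 member, Rars2, had an unadjusted p under 0.05 in edgeR (8.07% of all genes).

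The scale matters for the direction of small changes. The median of all tested genes was 0.04, 0.06 and 0.01 (log2) at 1, 4 and 10 Hz with TMM, but -0.14, -0.21 and -0.01 on log2(TPM + 1). With limma on that scale, 16 members were lower and 1 higher at 1 Hz, against 21.9% and 3.58% of genes, and 22 lower and 1 higher at 4 Hz, against 35.9% and 5.83%. Fars2 was the 1 member called higher on both scales. The other members called higher with TMM, namely Eprs, Dars, Mars1, Vars and Tars2, had TPM differences from -0.17 to 0.00 at the frequency of their call, which was 0.04 to 0.20 above the median of all genes. Farsb, Kars and Yars2, called at no frequency with TMM, were lower on the TPM scale at both 1 and 4 Hz, with values of -0.37 to -0.27 relative to that median.

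**Figure D1:**
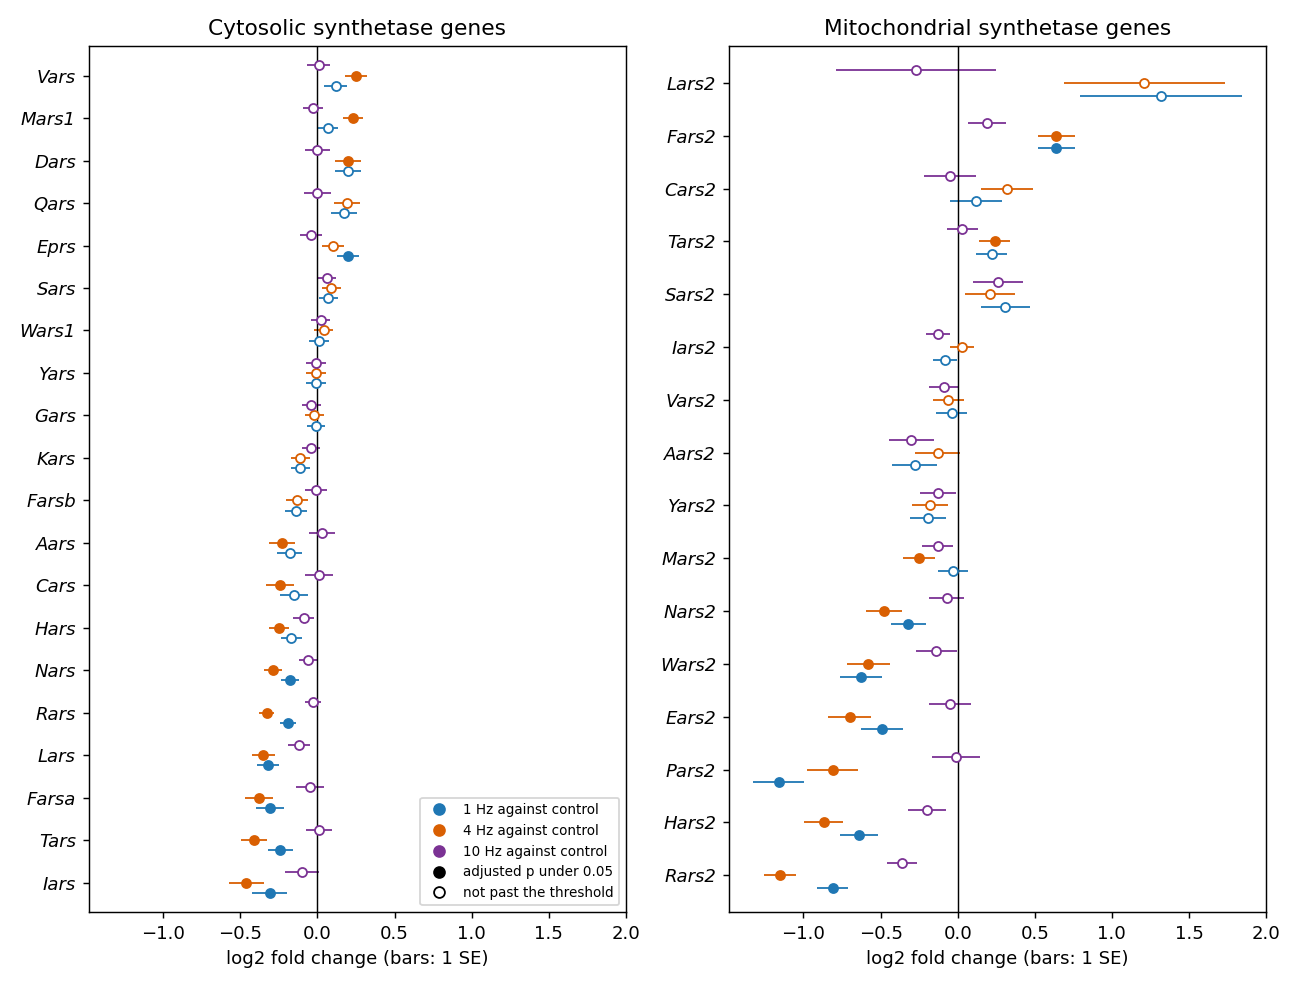
Log2 fold change (TMM scale) of the 20 cytosolic and 16 of the 17 mitochondrial synthetase genes against control, with bars of 1 SE and filled points for an adjusted p under 0.05. Cytosolic values lie between -0.46 and 0.25, while Rars2, Hars2, Pars2, Ears2 and Wars2 have lowest values of -1.16 to -0.63 and Lars2 stands at 1.32 and 1.21 with wide bars. Of the filled higher points, only Fars2 was also called higher on the TPM scale.

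Rars2, the mitochondrial arginine enzyme, had the smallest p of all members. It lies on chromosome 4 (GRCm39, 34614638 to 34660904, plus strand). Control libraries held 17.6, 20.4 and 21.1 CPM (lowest, median, highest), those at 1 Hz 9.29, 11.3 and 13.5, those at 4 Hz 7.63, 9.09 and 9.73, and those at 10 Hz 12.7, 15.4 and 17.9. Every library at 1 and at 4 Hz was below every control, and 5 of 6 at 10 Hz were. The log2 fold change was -0.81 ± 0.10 (SE, adjusted p = 1.2e-06) at 1 Hz, -1.15 ± 0.10 (adjusted p = 5.2e-09) at 4 Hz and -0.36 ± 0.099 (adjusted p = 0.19) at 10 Hz. Without the 5 libraries high in 18S RNA it was -0.77 (adjusted p = 2.3e-04) at 1 Hz and -1.19 (adjusted p = 2.2e-07) at 4 Hz. The cytosolic arginine gene Rars moved the same way by less, as given further on. Rars2 overlaps Orc3 on the opposite strand by 320 bases at its start, and whether counting used the strand is not stated.

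Pars2, which charges proline in mitochondria, had few reads, 13 to 90 estimated counts per library. Its CPM was 3.66, 4.41 and 5.75 in controls, 1.44, 1.97 and 2.44 at 1 Hz, 1.79, 2.54 and 3.19 at 4 Hz, and 3.34, 4.37 and 5.47 at 10 Hz. Neither the 1 Hz nor the 4 Hz range met the control range, and the 10 Hz range covered most of it. The log2 fold change was -1.16 ± 0.17 (adjusted p = 7.8e-06) at 1 Hz, -0.81 ± 0.17 (adjusted p = 2.6e-04) at 4 Hz and -0.01 ± 0.15 at 10 Hz.

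Hars2, the mitochondrial histidine enzyme, was at 18.4, 21.7 and 27.3 CPM in controls and 11.6, 13.1 and 19.1 at 1 Hz. At 4 Hz it was at 9.05, 12.7 and 13.2 CPM, and at 10 Hz at 15.9, 19.4 and 23.5. All 6 libraries at 4 Hz and 5 of 6 at 1 Hz were below every control. Its log2 fold change was -0.64 ± 0.12 (adjusted p = 2.8e-04) at 1 Hz and -0.87 ± 0.13 (adjusted p = 5.1e-06) at 4 Hz. Hars2 and the cytosolic gene Hars lie on opposite strands of chromosome 18 and overlap by 198 bases at their starts, and both fell at 4 Hz, Hars by less.

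Ears2, for mitochondrial glutamate, also supplies the route to glutamine, since the glutamyl-tRNA is amidated there. Its CPM was 7.54, 8.60 and 9.69 in controls, 4.43, 6.62 and 7.40 at 1 Hz, 3.88, 5.42 and 6.59 at 4 Hz, and 6.37, 8.51 and 9.90 at 10 Hz. The 1 and 4 Hz ranges lay wholly below the controls, and the 10 Hz range enclosed them. The log2 fold change was -0.49 ± 0.14 (adjusted p = 6.2e-03) at 1 Hz and -0.70 ± 0.14 (adjusted p = 2.1e-04) at 4 Hz. Without the libraries high in 18S RNA the 1 Hz value was -0.31 (adjusted p = 0.11) and the 4 Hz value -0.59 (adjusted p = 9.8e-04).

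Wars2 (tryptophan) and Nars2 (asparagine) fell at both frequencies too. Wars2 changed by -0.63 at 1 Hz and -0.58 at 4 Hz, and Nars2 by -0.32 and -0.48, and the 1 Hz call of Nars2 was lost in 4 of 12 fits that left out 1 library. Each of their 1 and 4 Hz libraries was below every control. Mars2 (methionine) fell at 4 Hz only by the threshold, with -0.25 (adjusted p = 4.2e-02) against -0.03 at 1 Hz, and its 4 Hz call was lost in 6 of 12 fits that left out 1 library. Aars2, Iars2, Vars2 and Yars2 were called at no frequency with TMM, with values from -0.30 to 0.03.

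Fars2, which charges phenylalanine in mitochondria as a single chain, went the other way. Its CPM was 7.80, 8.11 and 9.04 in controls, 11.1, 12.7 and 14.9 at 1 Hz, 10.5, 12.6 and 16.1 at 4 Hz, and 8.12, 8.63 and 11.7 at 10 Hz. All 12 libraries at 1 and 4 Hz were above every control, and 2 of 6 at 10 Hz were. The log2 fold change was 0.64 ± 0.12 (adjusted p = 1.8e-04) at 1 Hz, 0.64 ± 0.12 (adjusted p = 1.0e-04) at 4 Hz and 0.19 ± 0.12 (adjusted p = 0.75) at 10 Hz. The gene spans chromosome 13 from 36301324 to 36910254 (GRCm39, plus strand), and 10 annotated genes lie within or across it on the other strand, Lyrm4 among them. Tars2 (threonine) had 0.24 at 4 Hz, at adjusted p = 4.6e-02, and 9 of 12 fits with 1 library left out lost that call. Cars2 had 0.12 and 0.32 at 1 and 4 Hz, past no threshold.

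Sars2 and Lars2 were the members with the lowest and highest control level in this compartment. Sars2 had 1.98, 2.60 and 3.46 CPM in controls, 2.54, 3.48 and 3.98 at 1 Hz, 2.54, 3.20 and 3.58 at 4 Hz, and 2.45, 3.43 and 4.03 at 10 Hz. These ranges overlapped, and its values of 0.31, 0.21 and 0.26 passed no threshold.

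Lars2, the mitochondrial leucine enzyme, varied widely between libraries of 1 group. Its CPM was 63.2, 117 and 305 in controls, 192, 339 and 523 at 1 Hz, 115, 182 and 1090 at 4 Hz, and 80.8, 96.0 and 165 at 10 Hz. The log2 fold change was 1.32 ± 0.52 (adjusted p = 5.4e-02) at 1 Hz and 1.21 ± 0.52 (adjusted p = 6.0e-02) at 4 Hz. DESeq2 called Lars2 higher at both, at 1.3 (adjusted p = 2.8e-02) and 1.18 (adjusted p = 3.8e-02). By limma on log2(TPM + 1) it was called at neither (adjusted p = 5.8e-02 and 0.36). Without libraries above every control in mitochondrial share, edgeR gave Lars2 1.29 (adjusted p = 0.11) at 1 Hz and 1.46 (adjusted p = 4.6e-02) at 4 Hz. The 18S RNA gene Rn18s-rs5 moved with it, and ran from 1580 to 7610 CPM in controls, 5140 to 15500 at 1 Hz, 3910 to 29400 at 4 Hz and 2530 to 4600 at 10 Hz. In all 24 libraries there were 2.40 to 4.32 Lars2 counts for every 100 counts of Rn18s-rs5, while the 18S level itself spanned 1580 to 29400 CPM. Without the libraries high in 18S RNA the Lars2 value was 0.66 (adjusted p = 0.27) at 1 Hz and 0.11 (adjusted p = 0.83) at 4 Hz. Whether reads of ribosomal RNA were counted to Lars2 was not tested, and per the labels some low-input samples were depleted of ribosomal RNA without saying which.

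**Figure D2:**
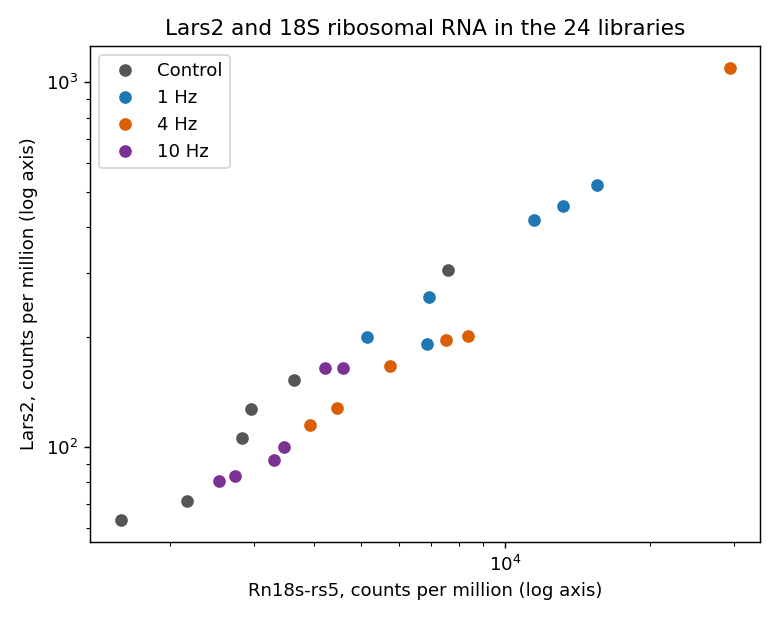
Lars2 against the 18S ribosomal RNA gene Rn18s-rs5 in the 24 libraries, both in CPM on log axes. The values rise together across all 4 groups, with 2.40 to 4.32 Lars2 counts per 100 counts of 18S RNA.

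Over the 17 mitochondrial genes, 6 were lower at 1 Hz against 1 that was higher, and 7 against 2 at 4 Hz. These are 35.3% and 5.88% of the set at 1 Hz and 41.2% and 11.8% at 4 Hz, beside 18.1% and 19.2%, and 23.9% and 27.5%, of all genes. Without the libraries high in 18S RNA 4 were lower at 1 Hz. With the further limit of an absolute log2 fold change over 0.5, 4 remained lower and 1 higher at 1 Hz (7.74% and 7.19% of all genes), with 5 and 1 at 4 Hz (12.3% and 12.8%). Their median stood at -0.19, -0.18 and -0.13 for 1, 4 and 10 Hz, or at -0.22, -0.21 and -0.11 without Lars2. These medians are small beside the values of Rars2, Pars2, Hars2, Ears2 and Wars2, so the lower values belonged to some members of the set and not to all.

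**Figure D3:**
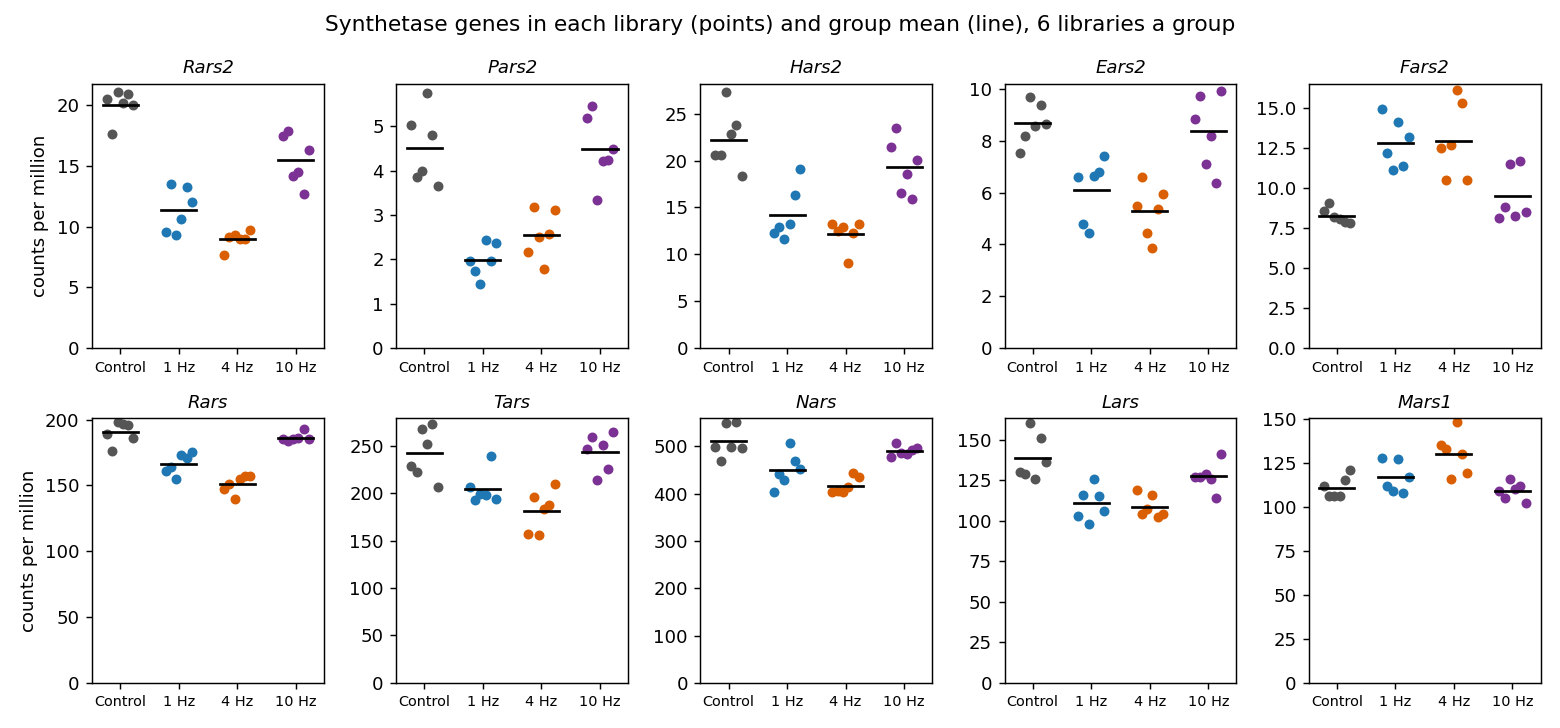
CPM of 10 synthetase genes in each library (points) with the mean of the 6 libraries of a group (line), axes starting at 0. Rars2, Pars2 and Ears2 at 1 and 4 Hz lie below every control, Fars2 lies above every control there, and the 10 Hz points of all 10 genes overlap the control range. Mars1 was higher at 4 Hz in CPM but not on the TPM scale.

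The cytosolic genes had smaller values. At 1 Hz 6 of 20 fell and 1 rose, and at 4 Hz 9 fell and 3 rose on the TMM scale, none by more than 0.5 on the log2 scale. These are 30% and 5% at 1 Hz and 45% and 15% at 4 Hz, beside the same shares of all genes. Their median stood at -0.12 for both 1 and 4 Hz and at -0.02 for 10 Hz. Without the 5 libraries high in 18S RNA, edgeR called 3 lower at 1 Hz (Nars, Lars and Farsa) and 0 higher. Of all genes, 10.8% were lower and 8.93% higher in that fit. Rars, Tars and Iars were no longer called there, at adjusted p = 5.1e-02, 0.23 and 0.40. Of the 8 enzymes of the multi-synthetase complex, 3 fell and 1 rose at 1 Hz (37.5% and 12.5%), against 3 and 2 at 4 Hz (37.5% and 25%, beside 23.9% and 27.5% of all genes).

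Rars, the arginine enzyme of the complex, had the smallest p in the cytosolic set. Its CPM was 176, 193 and 198 in controls, 155, 168 and 175 at 1 Hz, 140, 153 and 157 at 4 Hz, and 184, 185 and 193 at 10 Hz. All libraries at 1 and 4 Hz were below every control, though by little, and those at 10 Hz lay inside the control range. The log2 fold change was -0.19 ± 0.050 (adjusted p = 3.8e-03) at 1 Hz and -0.33 ± 0.050 (adjusted p = 7.4e-06) at 4 Hz.

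Lars and Iars, the leucine and isoleucine enzymes of the same complex, also fell. Lars had 126, 133 and 160 CPM in controls, 98.1, 110 and 126 at 1 Hz, 102, 106 and 119 at 4 Hz, and 114, 127 and 141 at 10 Hz, and changed by -0.32 (adjusted p = 1.1e-03) and -0.35 (adjusted p = 3.0e-04) at 1 and 4 Hz. Iars had 162, 184 and 213 CPM in controls, 128, 139 and 196 at 1 Hz, 123, 127 and 157 at 4 Hz, and 137, 180 and 215 at 10 Hz. It changed by -0.31 (adjusted p = 3.0e-02) and -0.46 (adjusted p = 1.5e-03). At 4 Hz all libraries of both genes were below every control, while at 1 Hz 5 of 6 were for Lars and 4 of 6 for Iars. The 1 Hz call of Iars was lost in 6 of 12 fits that left out 1 library.

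Mars1, the methionine enzyme of the complex, was higher at 4 Hz on the TMM scale and level on the TPM scale, where its log2 difference was 0.00. Its CPM was 106, 109 and 121 in controls, 108, 114 and 128 at 1 Hz, 116, 132 and 148 at 4 Hz, and 102, 110 and 116 at 10 Hz. At 4 Hz 4 of 6 libraries were above every control, and the log2 fold change was 0.23 ± 0.064 (adjusted p = 4.3e-03). Mars1 shares up to 3820 bases with Ddit3 on the opposite strand. Eprs, which charges both glutamate and proline, was higher at 1 Hz by 0.20 (adjusted p = 2.9e-02), and Dars (aspartate) at 4 Hz by 0.20 (adjusted p = 4.7e-02). Those calls were lost in 4 and 11 of 12 fits with 1 library left out, and on the TPM scale the values were -0.02 and -0.14.

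Outside the complex, Tars, Nars, Farsa and Hars were called lower at 4 Hz, and the first 3 also at 1 Hz, where Hars narrowly missed the threshold. Tars (threonine) had 207, 241 and 273 CPM in controls, 193, 198 and 239 at 1 Hz, 156, 185 and 210 at 4 Hz, and 214, 249 and 264 at 10 Hz. Its change at 1 Hz was -0.24 (adjusted p = 2.4e-02) and that at 4 Hz -0.41 (adjusted p = 2.2e-04). At each of these frequencies 5 of 6 libraries lay below every control. The 1 Hz call of Tars was lost in 3 of 12 fits that left out 1 library. It was also lost in edgeR without libraries above every control in mitochondrial share (adjusted p = 9.4e-02). Nars had 470, 498 and 552 CPM in controls, 404, 448 and 507 at 1 Hz, 403, 410 and 443 at 4 Hz, and 477, 490 and 507 at 10 Hz. For it the change was -0.18 (adjusted p = 1.8e-02) and -0.29 (adjusted p = 2.3e-04), and all 6 libraries at 4 Hz were below every control.

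Farsa and Farsb are the subunits of the cytosolic phenylalanine enzyme. Farsa had 80.0, 95.2 and 118 CPM in controls, 69.4, 76.9 and 84.8 at 1 Hz, 60.8, 75.2 and 86.0 at 4 Hz, and 85.6, 89.8 and 111 at 10 Hz. It changed by -0.31 (adjusted p = 9.4e-03) and -0.38 (adjusted p = 1.3e-03), while Farsb had -0.14 and -0.13, past no threshold. Fars2, their mitochondrial counterpart, rose over the same libraries. Hars had 88.6, 97.8 and 111 CPM in controls, 79.9, 85.9 and 100 at 1 Hz, 75.6, 81.7 and 91.7 at 4 Hz, and 88.3, 93.5 and 96.2 at 10 Hz. It was lower at 4 Hz, by -0.25 (adjusted p = 3.5e-03), with ranges that overlapped the controls. At 1 Hz it had -0.17 (adjusted p = 5.2e-02), or -0.18 (adjusted p = 8.8e-02) without the libraries high in 18S RNA. DESeq2 (adjusted p = 2.4e-02) and limma on log2(TPM + 1) (adjusted p = 9.7e-03) called Hars lower at 1 Hz. Aars and Cars were lower at 4 Hz by -0.23 and -0.24, a call lost for Cars in 4 of 12 fits with 1 library left out.

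Vars was higher at 4 Hz with TMM but not on the TPM scale, where its log2 difference was -0.07. Its CPM was 90.7, 92.9 and 97.1 in controls, 86.8, 99.3 and 124 at 1 Hz, 101, 110 and 124 at 4 Hz, and 84.8, 94.1 and 101 at 10 Hz. All 6 libraries at 4 Hz were above every control in CPM, and the change was 0.25 ± 0.074 on the log2 scale (adjusted p = 6.7e-03).

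Gars, Kars and Wars1 were called at no frequency with TMM and all libraries. Gars had 431, 474 and 527 CPM in controls, 433, 477 and 516 at 1 Hz, 425, 471 and 528 at 4 Hz, and 451, 466 and 480 at 10 Hz, and its log2 fold changes ran from -0.04 to -0.01. On log2(TPM + 1) limma called Gars lower at 4 Hz, at -0.35 (adjusted p = 7.3e-03), or -0.14 relative to the median of all genes. Kars had 156, 168 and 170 CPM in controls, 139, 149 and 172 at 1 Hz, 138, 153 and 176 at 4 Hz, and 159, 161 and 163 at 10 Hz. Its values of -0.11 at 1 Hz and -0.11 at 4 Hz missed the threshold with TMM (adjusted p = 0.13 and 0.11). At 4 Hz it was called lower without the libraries high in 18S RNA, at -0.16 (adjusted p = 1.4e-02), and by DESeq2, at -0.14 (adjusted p = 2.1e-02). On the TPM scale, where both were called lower (adjusted p = 7.0e-03 and 9.4e-04 by limma), they were -0.27 relative to the median of all genes. Wars1, an enzyme known to be induced by interferon, had 93.5, 97.4 and 107 CPM in controls, 90.4, 100 and 106 at 1 Hz, 88.0, 102 and 115 at 4 Hz, and 92.5, 101 and 105 at 10 Hz. Of 12 interferon response genes 6 were tested, and 2 of them, B2m and Tap1, were higher at 1 and 4 Hz (33.3%, beside 19.2% and 27.5% of all genes). Irf1, Gbp2 and Ifit3 passed no threshold, with values from -0.23 to 0.20. For Wars1 the log2 fold change was 0.01 at 1 Hz and 0.04 at 4 Hz, but on log2(TPM + 1) its 4 Hz value was -0.30 (adjusted p = 3.7e-02), or -0.09 relative to the median of all genes. Sars, Yars, Qars and Farsb were likewise not called with TMM, with values from -0.14 to 0.19.

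Over libraries without overlap, 6 members were wholly below the controls and 1 wholly above at 1 Hz (8.58% and 5.55% of all genes), and 10 below and 2 above at 4 Hz (14.7% and 12.9%). At 10 Hz there was no such member (0.864% and 0.774%). The 5 members below at both frequencies with mitochondrial products were Rars2, Pars2, Ears2, Wars2 and Nars2, and the 1 cytosolic member was Rars.

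Summed over genes, the TPM of the 20 cytosolic members was 2510, 2610 and 2990 in controls, 1730, 2230 and 2720 at 1 Hz, 1500, 2090 and 2310 at 4 Hz, and 2370, 2670 and 2820 at 10 Hz. The 16 mitochondrial members other than Lars2 summed to 134, 148 and 171 TPM in controls, 99.2, 116 and 126 at 1 Hz, 88.4, 106 and 111 at 4 Hz, and 124, 139 and 147 at 10 Hz. All 6 libraries at 4 Hz were below every control for both sums, and at 1 Hz 6 of 6 were for the mitochondrial and 5 of 6 for the cytosolic sum. These sums are on the TPM scale, on which the median of all genes was itself lower by the amounts given above. The ratio of the cytosolic to the mitochondrial sum was 16.9, 17.8 and 19.3 in controls and 17.0, 19.6 and 21.8 at 4 Hz, so the ranges overlapped.

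**Figure D4:**
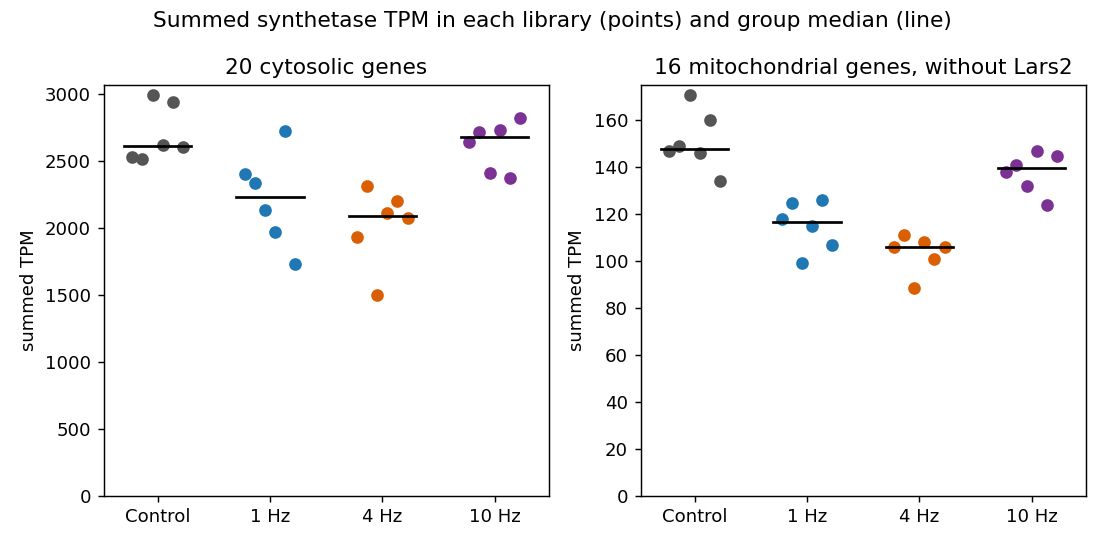
Summed TPM of the 20 cytosolic genes (left) and of 16 mitochondrial genes without Lars2 (right) in each library (points), with the group median (line). At 4 Hz every library is below every control in both panels, and at 10 Hz the points overlap the control range.

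Side by side for each amino acid, the values of the compartments were often unequal. For proline, Eprs had 0.20 at 1 Hz and 0.10 at 4 Hz where Pars2 had -1.16 and -0.81. For glutamate Ears2 stood against the same Eprs values with -0.49 and -0.70. For tryptophan Wars1 had 0.01 and 0.04 where Wars2 had -0.63 and -0.58. For arginine and asparagine both genes were lower at both frequencies, and for histidine both at 4 Hz. The mitochondrial value minus the cytosolic one was -0.62 and -0.82 for arginine, -0.47 and -0.62 for histidine, and -0.14 and -0.19 for asparagine. The reverse order held for phenylalanine, where this difference was 0.94 and 1.02 for Fars2 and Farsa, and for threonine, at 0.46 and 0.65. It also held for cysteine (0.27 and 0.56), isoleucine (0.23 and 0.49), serine (0.24 and 0.13) and leucine (1.64 and 1.56). These differences between genes were not tested.

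The frequencies were also compared with each other in the same fit. Between 4 and 1 Hz edgeR called 0 members and 0 of all genes (0%), as did DESeq2 and limma for the members, with 5 members at an unadjusted p under 0.05 (11% of all genes). The differences ran from -0.34 for Rars2 (unadjusted p = 3.4e-03) to 0.35 for Pars2. Between 10 and 1 Hz 9 members were higher at 10 Hz and 3 lower (14.8% and 13.1% of all genes), and between 10 and 4 Hz 14 were higher and 5 lower (21.9% and 24.4%). On log2(TPM + 1) these counts were 10 higher and 1 lower (15.5% and 2.19% of genes), and 21 and 0 (33.2% and 5.06%). At 10 Hz Rars2 exceeded its 1 Hz level by 0.45 (adjusted p = 2.2e-03) and its 4 Hz level by 0.79 (adjusted p = 2.3e-06), with all 6 libraries above every one at 4 Hz (as for 10.8% of genes). For Pars2 these differences were 1.15 (adjusted p = 2.3e-05) and 0.80 (adjusted p = 4.9e-04). Fars2 was lower at 10 Hz than at either, by -0.44 and -0.45, and Rars, Tars, Lars and Farsa were higher by 0.16 to 0.42. Without the libraries high in 18S RNA, 3 members in place of 12 were called between 10 and 1 Hz. They were 2 higher and 1 lower, beside 6.6% and 4.76% of all genes. Without libraries above every control in mitochondrial share, 1 member was higher and 2 lower at 4 than at 1 Hz (3.67% and 6.81% of genes).

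Upstream sequence was read from RefSeq (GRCm38.p6) to show which members hold the letters of known response elements, as 250 bases before to 50 bases after the annotated start. A window was read for 27 of the 37 members, and those not read included Cars, Hars, Hars2, Lars, Nars, Pars2, Rars, Vars and Wars1. Hars, Hars2, Lars and Nars lie on the same chromosome, from which no member was read. The counts below cover only the members read, and whether the others hold these letters was not tested. The letters TGATGNAA, searched on both strands, are those of the C/EBP-ATF element through which ATF4 acts in the amino acid response. They were in the windows of 5 of 13 cytosolic members (Aars, Gars, Iars, Tars and Yars) and in 0 of 14 mitochondrial ones, and in 3.97% of 32817 windows of all genes. At 4 Hz Aars, Iars and Tars were lower, while Gars had -0.02 and Yars -0.01 and were not called. The letters GCATGCGC, the core of the site of NRF1, a regulator of mitochondrial genes, were in 3 of 14 mitochondrial members (Rars2, Vars2 and Wars2), in 0 of 13 cytosolic ones and in 2.71% of all windows. Rars2 and Wars2 were lower at 1 and 4 Hz, and Vars2 had -0.04 and -0.06. The E-box CACGTG was in 5 of the 27 windows (18.5%) and in 7.15% of all. The E-box reads the same on both strands, and matches of different letters shared bases in 0 of the 27 windows. A match describes letters and no more.

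The 120 bases before the start are shown for 3 cytosolic members with the ATF4 letters, of which Aars and Tars fell and Gars was not called, and for the mitochondrial members with the NRF1 letters that fell. Capitals mark the match on either strand, and each begins 112 (Aars), 15 (Tars), 30 (Gars), 51 (Rars2) and 64 (Wars2) bases before the start. Aars has another match after the start that is not shown.
Aars, chr8:111033722-111033841, plus strand: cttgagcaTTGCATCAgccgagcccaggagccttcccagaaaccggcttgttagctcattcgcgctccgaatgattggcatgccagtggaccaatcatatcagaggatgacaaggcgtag
Tars, chr15:11399659-11399778, minus strand: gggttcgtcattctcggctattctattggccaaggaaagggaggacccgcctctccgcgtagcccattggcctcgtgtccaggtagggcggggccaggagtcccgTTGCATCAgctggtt
Gars, chr6:55037881-55038000, plus strand: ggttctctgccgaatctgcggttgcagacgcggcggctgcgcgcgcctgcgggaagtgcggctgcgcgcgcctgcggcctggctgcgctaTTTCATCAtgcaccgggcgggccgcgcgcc
Rars2, chr4:34614837-34614956, plus strand: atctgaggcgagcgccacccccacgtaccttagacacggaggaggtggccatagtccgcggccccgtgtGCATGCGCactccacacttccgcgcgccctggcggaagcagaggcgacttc
Wars2, chr3:99140970-99141089, plus strand: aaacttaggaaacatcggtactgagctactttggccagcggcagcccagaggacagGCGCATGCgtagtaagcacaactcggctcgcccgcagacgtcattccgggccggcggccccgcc

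Genes around the synthetases are given on the TMM scale. Of the 3 scaffold genes of the multi-synthetase complex, Aimp1 was higher, by 0.31 at 1 Hz and 0.44 at 4 Hz, and Aimp2 (-0.23 and -0.19) and Eef1e1 (-0.35 and -0.45) were lower. Of 23 genes that prepare, export or deliver tRNA, 4 rose and 3 fell at 1 Hz, against 10 and 6 at 4 Hz, where their median was 0.21. These are 17.4% and 13% at 1 Hz, where 19.2% and 18.1% of all genes were called, and 43.5% and 26.1% at 4 Hz, beside 27.5% and 23.9%. Trnt1, which adds the CCA end that synthetases need, had a control mean of 75.6 CPM and changed by -0.37 and -0.61 (adjusted p = 5.0e-05 at 4 Hz). Xpot, the exporter of tRNA from the nucleus, changed by -0.40 and -0.63, and Mtfmt, which formylates the initiator methionyl-tRNA of mitochondria, by -0.72 and -0.76. Among the higher ones at 4 Hz were Eef1b2, an exchange factor of the tRNA-delivering elongation factor, at 0.61, Dtd1, which removes D-amino acids from tRNA, at 0.61, and Eef1a1, that elongation factor, at 0.28. At 10 Hz edgeR called 0 of these 23, with 1 at an unadjusted p under 0.05 (8.07% of all genes).

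Of 24 genes of the ATF4 response, 6 rose and 7 fell at 1 Hz, against 8 and 6 at 4 Hz. These are 25% and 29.2% at 1 Hz and 33.3% and 25% at 4 Hz, beside 19.2% and 18.1%, and 27.5% and 23.9%, of all genes. Atf4 itself had a control mean of 719 CPM and rose by 0.41 (adjusted p = 1.3e-04) at 1 Hz and 0.49 (adjusted p = 7.3e-06) at 4 Hz, and Trib3, Nupr1 and Cebpg rose by 0.44 to 0.80. Slc7a11, the cystine transporter, fell by 0.98 and 1.30, and Psph, of serine synthesis, by 0.36 and 0.45. Asns, the asparagine synthetase and a classic target, had -0.06 and -0.05, past no threshold. At 10 Hz edgeR called 0 of the 24, with 3 at an unadjusted p under 0.05 (8.07% of all genes). Ddit3, also of this response, was left out of the 24 because more than 1 gene entry bears its name.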

How the data were processed

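RNA of 24 muscle tissues, 6 per group, was sequenced by the authors after poly(A) selection, with ribosomal RNA depletion for some low-input samples that the labels do not name, and reads were processed with nf-core/rnaseq and Salmon on GRCm39 with the Ensembl annotation. The deposited estimated counts were not normalized, and the deposited TPM were divided by length and scaled per library by the authors' pipeline. The submitters' processing notes also name STAR, BWA 0.7.12-r1039, bedtools 2.25.0 and the builds mm10 and hg19, with no role given. The authors made the libraries with a directional kit, but use of the strand in counting was not stated.

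Counts were rounded, filtered by filterByExpr (minimum count 10, minimum total 15), scaled by TMM, and tested in edgeR 4.0.16 (R 4.3.3) by quasi-likelihood with robust dispersions in a single model of the 24 libraries, with p-values adjusted over 13315 genes by Benjamini-Hochberg. The biological coefficient of variation was 14.8%. limma 3.58.1 on log2(TPM + 1), for genes of at least 1 TPM in 6 libraries, DESeq2 1.42.0, other factors, filters and left-out libraries were alternatives. The tests were also run on simulated data with changes larger than those of the cytosolic genes, so small changes were not covered. Positions and overlaps came from GENCODE M39.

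Members and lists were chosen with earlier results of these data known. Values per group are given for the 8 cytosolic and 5 mitochondrial members with the smallest p against control, the highest and lowest member of each compartment in control TPM, Gars, Kars and Wars1, and for up to 6 genes of each other list. Wars2, Nars2, Asns and a few other members are described by fold change. A list is described by counts, with no list test. The values of 1 mitochondrial member enter the counts, medians and sums but are not reported here.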

Additional observations from a re-analysis of the deposited data

Results flagged for a closer look

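In 7 of 76 checks of a named gene in a group of 6 libraries, 1 library stood apart from the other 5 by Dixon's test (its gap to the nearest one against the range of the group), where chance gives about 1 in 20. Rars at 10 Hz replicate 5 was at 193 CPM, with the nearest library at 186. Tars at 1 Hz replicate 5 was at 239 CPM, with the nearest at 206. Rars2 was at 17.6 CPM in control replicate 2 (nearest 20.0) and at 7.63 CPM in 4 Hz replicate 1 (nearest 8.95). Hars2 at 4 Hz replicate 4 was at 9.05 CPM (nearest 12.3). Lars2 was at 305 CPM in control replicate 1 (nearest 153) and at 1090 CPM in 4 Hz replicate 4 (nearest 201), and these libraries also had the most 18S RNA of their group, at 7610 and 29400 CPM.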

How the results depend on the processing

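Of 681 values of named genes under the other settings (libraries left out 1 at a time aside), 638 stayed on their side of the threshold, 12 fell short of it, 23 came past it and 8, called in 1 of the settings compared, changed sign or came to 0.00. Of the 638, 22 had the other sign without passing the threshold in either setting, among them Vars and Mars1 at 1 Hz and Sars2 at 4 Hz on the TPM scales. The 8 were at 4 Hz on the TPM scales: Mars1 0.00 in 3 settings, Vars -0.07 in 3, and Wars1 -0.30 and -0.31 with 1 and 0.1 added. The depth limits Pars2 and Sars2 most, and no analysis of strand was made.

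Counts of cytosolic genes higher at 1 Hz (1) became 0 and at 4 Hz (3) became 0 without a filter on low counts and on every TPM scale. The 1 Hz count was also 0 with only 2 groups in the fit and without the libraries high in 18S RNA, where the 1 Hz count of lower genes went from 6 to 3. With a limit of 0.5 on log2 fold change, cytosolic counts were 0 in each direction. Mitochondrial genes higher numbered 2 at 1 Hz in place of 1 with 2 groups in the fit and with DESeq2. At 4 Hz they numbered 1 in place of 2 with RLE factors, no filter, the replicate block, 2 TPM scales, no 18S-rich libraries or the limit of 0.5, and 0 on unfiltered TPM. Between 10 and 1 Hz 12 calls became 5 on unfiltered TPM (5.05% of genes higher and 0.596% lower). They became 3 without 18S-rich libraries (6.6% and 4.76%) and 2 with the limit (779 and 664 of 13315 genes). Between 10 and 4 Hz 19 became 5 with the limit (1405 and 1414 genes). Between 4 and 1 Hz 0 became 3 (1 higher and 2 lower) without the libraries high in mitochondrial RNA. In that fit 3.67% of all genes were higher and 6.81% lower. These exclusions were chosen after seeing the data. On log2(TPM + 1) 16 tRNA genes at 4 Hz became 10, higher and lower together. On that scale 5.83% of all genes were higher and 35.9% lower.

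Cytosolic medians were -0.31 at 1 Hz and -0.47 at 4 Hz on all TPM scales, and -0.18 at 4 Hz without 18S-rich libraries. Mitochondrial medians were -0.39 (added 1) and -0.43 (added 0.1) at 1 Hz and -0.40 and -0.57 at 4 Hz, and -0.32 at 1 Hz without libraries high in mitochondrial RNA. The cause of these shifts was not tested.

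With 1 library left out, cytosolic counts were 0 to 2 higher and 3 to 8 lower at 1 Hz, and 2 to 3 and 8 to 11 at 4 Hz. Mitochondrial counts were 1 to 3 and 5 to 8 at 1 Hz, and 1 to 3 and 6 to 7 at 4 Hz. The shares of all genes moved too, with 13.5% to 21.6% higher and 15.2% to 19.4% lower at 1 Hz. At 4 Hz they were 22.3% to 27.5% and 21.9% to 24.4%. The 3 lower cytosolic genes came without control replicate 5, the 3 higher mitochondrial ones without 1 Hz replicate 1, and 2 without control replicate 1. At 1 Hz 0 cytosolic genes were higher by edgeR without control replicate 1 or 4 or 1 Hz replicate 4, and 2 without 1 Hz replicate 1. At 4 Hz 1 mitochondrial gene was higher without control replicate 2, 4, 5 or 6 or 4 Hz replicate 1, 3 or 4. Calls numbered 8 to 15 between 10 and 1 Hz, where 11% to 17.1% of all genes were higher and 7.55% to 16.7% lower. They numbered 17 to 21 between 10 and 4 Hz, beside 19.8% to 23.8% and 18.4% to 24.7%. The cytosolic median at 4 Hz ran from -0.20 (without 4 Hz replicate 4) to -0.10.

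Same-numbered libraries of different groups did not deviate together (36 pairs, r from -0.33 to 0.24, 3 over 0.1, and 1 of 24 libraries closest to its own number), so numbers were not taken to pair samples. With a replicate block, 2 members were higher and 12 lower at 1 Hz, beside 17% and 17.7% of all genes. At 4 Hz 3 were higher and 16 lower, beside 26.3% and 23.6%.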
